A study of Mus musculus with 6 samples.

Results

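Of the 18956 genes in the deposited expression table, 37 encode proteins of homologous recombination, of the Fanconi anaemia pathway and of the checkpoint that serves both. The 37 genes were chosen by symbol, from what their products do, with earlier results of these data known. All 37 had a row in the table and passed the filter on low values. They were compared between 3 libraries labelled WT and Cre-negative (WT 1 to 3) and 3 with the label CSE-KO and Cre-positive, here CSE-KO 1 to 3, all from isolated mouse lung endothelial cells. CSE is cystathionine gamma-lyase, an enzyme that releases cysteine from cystathionine, and the gene Cth encodes it. The deleted exons, the age of the mice, the time in culture and whether libraries of a group came from separate animals are not stated by the labels, nor are the promoter and cell type of the Cre. By its title, the study concerns cystine uptake, its oxidative breakdown and histone acetylation in endothelial growth and repair.

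Homologous recombination mends a broken chromosome by copying the intact sister, so it works mainly in S and G2 phase, and many of its genes are transcribed most in dividing cells. The broken end is cut back to single-stranded DNA, the BRCA proteins ready that strand to pair with the sister, and the joined molecules are later separated. The Fanconi proteins detect strands that are crosslinked to each other, mark the site by attaching ubiquitin to FANCD2 and FANCI, and hand the break on to recombination. The kinases ATM and ATR report breaks and stalled forks to the cell cycle.

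Cth read 29, 27 and 26 in the WT libraries, against 49, 43 and 63 in those labelled CSE-KO, all in normalized counts, the deposited values, which are given throughout in the order of replicates 1 to 3. It was thus higher in the libraries labelled CSE-KO (log2 fold change 0.89, SE 0.18, adjusted p = 0.00079), against the direction of the label, and a value summed over the gene cannot show whether part of it was deleted. Groups are therefore named by label. Total normalized counts lay between 6028772 and 6052275 in WT and between 5698922 and 5765008 in CSE-KO. The endothelial cadherin gene Cdh5 was at 2815 to 2849 in WT and at 2666 to 2678 in CSE-KO, whereas Vwf, another endothelial marker, reached no more than 17 in any library. Of 14 endothelial markers, 12 fell, against 39.0% of all genes tested, and 2 were not called. Their median log2 fold change was −0.68 over the 14. Their summed level went from between 20191 and 20633 in WT to between 13438 and 14360 in CSE-KO. By point estimate, Cdh5 had the smallest of the 12 falls (log2 fold change −0.08) and Tek the largest (−1.57). In WT, Cdh5 stood at 673 normalized counts per kilobase of annotated exon and Tek at 183. Discarding reads that share a start would narrow falls most at high density, and its part in this order was not tested. Tek was at 839 to 885 in WT and at 263 to 321 in CSE-KO. Of 13 macrophage markers tested, 11 rose, against 38.3% of all genes tested. Adgre1, C1qa, C1qb, Csf1r, Marco, Mpeg1, Ptprc and Tyrobp were under 10 in every WT library. They passed the filter on low values only through CSE-KO, so the count of rises includes them by selection. The summed level of the 14 macrophage markers on the list went from between 1050 and 1096 to between 1549 and 1761. Cd14, the most abundant of them in WT, was the only one to fall, from between 775 and 788 to between 187 and 315, and in CSE-KO it stood below Lyz2, at 408 to 466. Adgre1, Marco and Ptprc, which mark macrophages or leukocytes, were at 0 in all 3 WT libraries and at 18 to 62 in CSE-KO. Of 10 mural and fibroblast markers tested, 4 rose and 3 fell, against 38.3% and 39.0% of all genes tested. Tagln was at 556 to 587 in WT and 803 to 831 in CSE-KO. Krt18, the most abundant epithelial marker, was at 233 to 283 over all libraries and was not called (adjusted p = 0.063). What part other cell types had in the results was not tested. In genes of low read density, the squared difference of 2 WT libraries over their summed count averaged 0.933 to 0.990, where counting noise alone gives about 1. That figure holds for unscaled counts, and the size factors behind the deposited values are not given. In these genes the average was 1.06 for CSE-KO 2 and 3 and 1.11 and 1.27 for CSE-KO 1 against them. Over all 13750 genes it was 0.709 to 0.757 in WT and 0.860 for CSE-KO 2 and 3, but 1.63 and 1.92 for CSE-KO 1 against them, so CSE-KO 1 stood apart. The p-values therefore measure a spread that may be technical.

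The recombination and Fanconi genes were mostly lower in the libraries labelled CSE-KO. Of the 37 genes, 29 fell and 2 rose at an adjusted p under 0.05 (limma, adjusted over 13750 genes tested), and 6 were not called. Among all genes tested, 39.0% fell and 38.3% rose. The mean of 15 genes was at most 50% of that in WT, as was the case in 11.8% of all genes tested. The median log2 fold change was −0.80 for the 37 genes and 0.001 for all genes tested. Summed over the 37 genes, normalized counts came to 11288, 11303 and 10972 in the WT libraries, against 7656, 6931 and 7086 in those labelled CSE-KO. In 29 genes every CSE-KO library lay below every WT library and in 2 every one lay above, against 40.4% and 40.0% of all genes tested. With the WT libraries counted as 1 sample and CSE-KO 2 and 3 as another, fewer of the 37 genes were called. The share of all genes called in that fit is not given here. Its log2 fold changes ran from −2.14 (Fanca) to 0.61 (Rad51c).

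**Figure D1:**
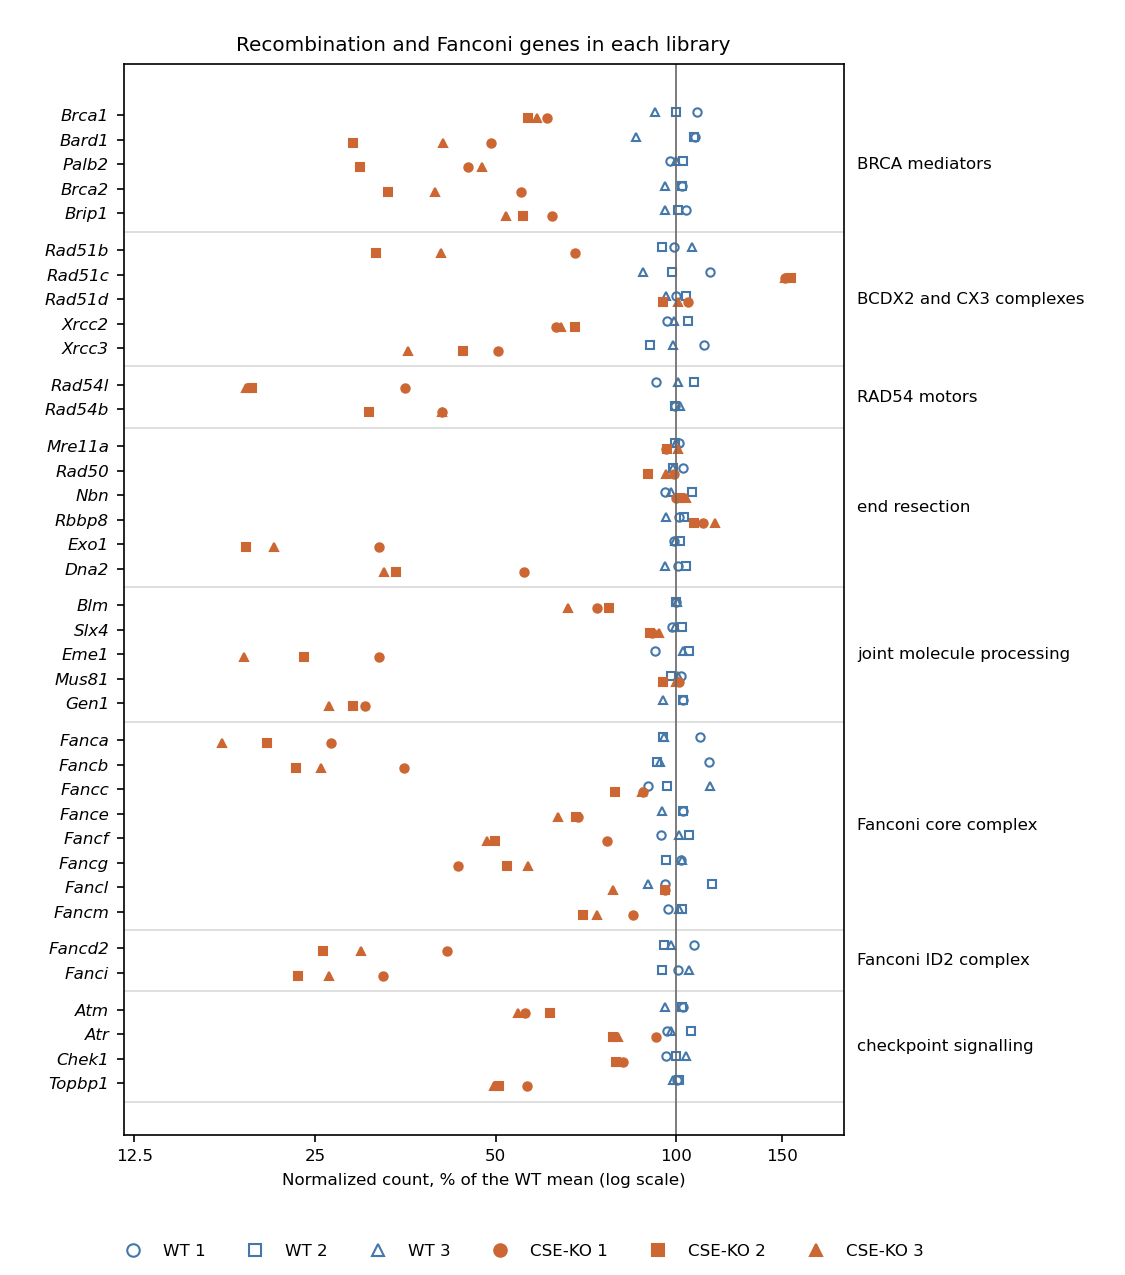
Normalized count of each of the 37 genes in each library as a percent of the mean of the 3 WT libraries, on a log axis, with genes grouped by role; open symbols are WT and filled symbols CSE-KO. Exo1, Rad54l, Eme1 and Fanca lie at the far left, while Mre11a, Rad50, Nbn, Mus81 and Rad51d stay near 100% and Rad51c lies to the right.

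General proliferation genes were lower in the same libraries. Of 30 such genes, 29 fell, against 39.0% of all genes tested, with a median log2 fold change of −0.86. Fewer of them were called with the WT libraries counted as 1 sample and CSE-KO 2 and 3 as another. Their summed normalized counts went from between 21953 and 22393 in WT to between 9591 and 11684 in CSE-KO. Mki67, a marker of cycling cells, read 3155, 3086 and 3077 in the WT libraries, against 1057, 635 and 614 in those labelled CSE-KO. Pcna, the sliding clamp of DNA replication, moved far less, from 361, 360 and 335 to 308, 318 and 301 (log2 fold change −0.19, adjusted p = 0.0047). The part that a smaller share of dividing cells had in the repair genes was not tested. In bulk RNA, fewer cells that express a gene and less of its RNA per cell cannot be told apart.

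CSE-KO 1 was the CSE-KO library nearest to WT in most of the genes that fell. It held the highest CSE-KO value in 22 of the 29 genes, or 75.9%, against 61.5% of all genes that fell, and in 23 of the 29 proliferation genes that fell. CSE-KO 2 and CSE-KO 3 were each highest in 3, and in Rad54b CSE-KO 1 and 3 were equal. Without CSE-KO 1 the median of the 37 genes was −0.88, and 30 fell and 2 rose. The shares of all genes called in that fit are not given here.

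Brca1, Bard1, Brca2, Palb2 and Brip1 encode the BRCA proteins and their close partners. All 5 fell, against 39.0% of all genes tested. Brca1, whose product directs broken ends into recombination, read 426, 394 and 363 in the WT libraries, against 240, 223 and 231 in those labelled CSE-KO. The groups did not overlap (log2 fold change −0.77, SE 0.06, adjusted p = 6.9e-07). Brca1 (ENSMUSG00000017146) lies on the minus strand of chr11:101488764-101551955 in mm10. Bard1 encodes the obligate RING partner of BRCA1, and its values were 208, 207 and 166 against 95, 56 and 79. All 3 CSE-KO values were below the lowest WT value, with a log2 fold change of −1.36 (SE 0.19, adjusted p = 0.00031). Brca2, the mediator of strand pairing, went from 424, 423 and 397 to 228, 137 and 164, a log2 fold change of −1.26 (SE 0.19, adjusted p = 0.0018). CSE-KO 1 stood well above the other CSE-KO libraries in Brca2. When the WT libraries were counted as 1 sample and CSE-KO 2 and 3 as another, Brca2 was no longer called (adjusted p = 0.13). Palb2, which bridges BRCA1 to BRCA2, was at 115, 121 and 118 against 53, 35 and 56 and so kept 40.7% of its WT mean. The helicase gene Brip1, also known as FANCJ, kept 56.5%, with values of 289, 281 and 267 against 173, 155 and 145.

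The genes of the BCDX2 and CX3 complexes, small assemblies that assist strand pairing, did not move as a block. Of the 5, Rad51b, Xrcc2 and Xrcc3 fell, Rad51c rose and Rad51d was not called. Rad51c, a subunit of both complexes, read 66, 57 and 51 in the WT libraries, against 88, 90 and 88 in those labelled CSE-KO. Every CSE-KO library was above every WT library (log2 fold change 0.62, SE 0.12, adjusted p = 0.00081), which made it the larger of the 2 rises. Rad51c (ENSMUSG00000007646) lies on the minus strand of chr11:87376645-87404954. Xrcc3, its partner in the smaller complex, went from 53, 43 and 47 to 24, 21 and 17 (log2 fold change −1.19, SE 0.19, adjusted p = 0.00014). Rad51b was low throughout, at 44, 42 and 47 against 30, 14 and 18. Its groups did not overlap, but its call was lost when replicates that differed little were merged (adjusted p = 0.11). Xrcc2 fell from 144, 156 and 148 to 94, 101 and 96. Rad51d, with which XRCC2 pairs, was at 261, 271 and 251 against 273, 248 and 263. Its groups overlapped, and the 95% interval of its log2 fold change ran from −0.13 to 0.13.

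Rad54l and Rad54b encode motor proteins that help to search for and open the matching duplex. Rad54l read 212, 245 and 231 in the WT libraries, against 81, 45 and 44 in those labelled CSE-KO, and kept 24.7% of its WT mean (log2 fold change −2.06, SE 0.24, adjusted p = 0.00018). CSE-KO 1 again stood nearest to WT, and without it the log2 fold change was −2.35. Its call was lost with the merged replicates (adjusted p = 0.067). Rad54b was at 100, 100 and 102 against 41, 31 and 41, with CSE-KO values far below WT (log2 fold change −1.42, SE 0.14, adjusted p = 3.1e-06).

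End resection genes parted into those that start the cut and those that extend it. MRE11, RAD50 and NBN form the complex that senses the break and makes the initial cut, and none of its 3 genes was called. Mre11a read 572, 563 and 566 in the WT libraries, against 544, 547 and 571 in those labelled CSE-KO, with a 95% interval of the log2 fold change from −0.11 to 0.04. The groups overlapped, as they did for the other subunits. Rad50 was at 716, 689 and 687 against 691, 625 and 669 (interval −0.17 to 0.01), and it was called lower without CSE-KO 1 (log2 fold change −0.11, adjusted p = 0.020). Nbn was at 297, 329 and 304 against 310, 314 and 321 (interval −0.09 to 0.14). Rbbp8, which encodes CtIP, the cofactor that switches on the MRE11 cut, rose slightly from 502, 513 and 478 to 551, 532 and 578 (log2 fold change 0.15, SE 0.04, adjusted p = 0.0066). That rise was not called against a fold of 1.2 (adjusted p = 1.0) or with the WT libraries as 1 sample (adjusted p = 0.063). Both nucleases of long-range resection fell. Exo1, a 5′ to 3′ exonuclease, was at 232, 238 and 233 against 75, 45 and 50, and it kept 24.2% of its WT mean (log2 fold change −2.07, SE 0.17, adjusted p = 4.1e-06). Dna2, a nuclease and helicase that also trims replication intermediates, went from 139, 143 and 132 to 77, 47 and 45 (log2 fold change −1.33, SE 0.19, adjusted p = 0.00013). The Dna2 call was lost with the merged replicates (adjusted p = 0.068).

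Among the enzymes that take joined DNA molecules apart, Gen1, Eme1, Blm and Slx4 fell and Mus81 was not called. Gen1, a nuclease that cuts four-way junctions, read 373, 372 and 345 in the WT libraries, against 110, 105 and 96 in those labelled CSE-KO. The CSE-KO libraries were close to each other, and the adjusted p of 3.1e-09 was the smallest of the 37 genes (log2 fold change −1.81, SE 0.07). Eme1, the non-catalytic subunit of the MUS81 nuclease, went from 150, 171 and 167 to 52, 39 and 31 (log2 fold change −2.02, SE 0.17, adjusted p = 1.2e-06). Mus81, which carries the active site, was at 182, 175 and 180 against 181, 170 and 179, with overlapping groups and a 95% interval of the log2 fold change from −0.16 to 0.12. Blm, a helicase that dissolves junctions without cutting, went from 289, 290 and 291 to 214, 224 and 191, or 72.3% of the WT mean. Slx4, the scaffold that holds several such nucleases, was at 477, 497 and 484 against 442, 439 and 455. Its small fall (log2 fold change −0.13, adjusted p = 0.0093) was not called with equal totals per library (adjusted p = 0.22).

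The Fanconi core complex is the ubiquitin ligase of the pathway. Of its 8 genes, 7 fell, against 39.0% of all genes tested, and by very unequal amounts. Fanca, whose product pairs with FANCG, had the largest fall of the 37 genes by point estimate, from 433, 375 and 377 across the WT libraries to 105, 82 and 69 across those labelled CSE-KO. It kept 21.6% of its WT mean (log2 fold change −2.22, SE 0.15, adjusted p = 2.8e-06). Fanca (ENSMUSG00000032815) lies on the minus strand of chr8:123268300-123318576. Fancb, which sits beside the catalytic subunit, went from 190, 156 and 158 to 59, 39 and 43 (log2 fold change −1.84, SE 0.15, adjusted p = 1.0e-06). Fancl, the catalytic RING subunit, was at 111, 133 and 104 against 111, 111 and 91. Its groups overlapped and it was not called, with a 95% interval of the log2 fold change from −0.41 to 0.11. Fancg kept 50.7% of its WT mean, Fancf 58.3%, Fance 66.8% and Fancm, the DNA translocase that anchors the complex, 76.0%. Fancm was not called against a fold of 1.2 (adjusted p = 0.085). The Fancf call was lost with the merged replicates (adjusted p = 0.11). Fancc was at 191, 205 and 242 against 187, 168 and 186, and its fall (log2 fold change −0.23, adjusted p = 0.034) was not called without WT 3 (adjusted p = 0.16), without WT 2 (0.055) or without CSE-KO 2 (0.12), nor with equal totals per library (0.12).

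The substrate pair of the core complex, Fancd2 and Fanci, fell in each CSE-KO library. Fancd2 read 319, 285 and 292 in the WT libraries, against 124, 77 and 89 in those labelled CSE-KO (log2 fold change −1.65, SE 0.17, adjusted p = 5.0e-05). Fanci was at 331, 311 and 346 against 107, 77 and 87 (log2 fold change −1.87, SE 0.11, adjusted p = 1.0e-07). In both genes CSE-KO 1 was the highest and CSE-KO 2 the lowest of the CSE-KO libraries.

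All 4 checkpoint genes fell, against 39.0% of all genes tested. Topbp1, the activator of ATR, read 1217, 1226 and 1195 in the WT libraries, against 684, 613 and 602 in those labelled CSE-KO (log2 fold change −0.94, SE 0.04, adjusted p = 2.3e-08). Atm, the kinase of double-strand breaks, was at 708, 705 and 661 against 387, 426 and 376 (log2 fold change −0.80, SE 0.05, adjusted p = 8.0e-08). Atr, the kinase of stalled forks, was at 551, 602 and 558 against 528, 447 and 456, with CSE-KO 1 close to WT. The log2 fold change of Atr was −0.26 (SE 0.06, adjusted p = 0.0045), and it was not called with the WT libraries as 1 sample (adjusted p = 0.058). Chek1, the effector kinase of ATR, was at 204, 212 and 220 against 173, 168 and 169 (log2 fold change −0.32, SE 0.06, adjusted p = 0.00069). Tested against a fold of 1.2, neither Atr (adjusted p = 0.78) nor Chek1 (adjusted p = 0.34) was called.

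**Figure D2:**
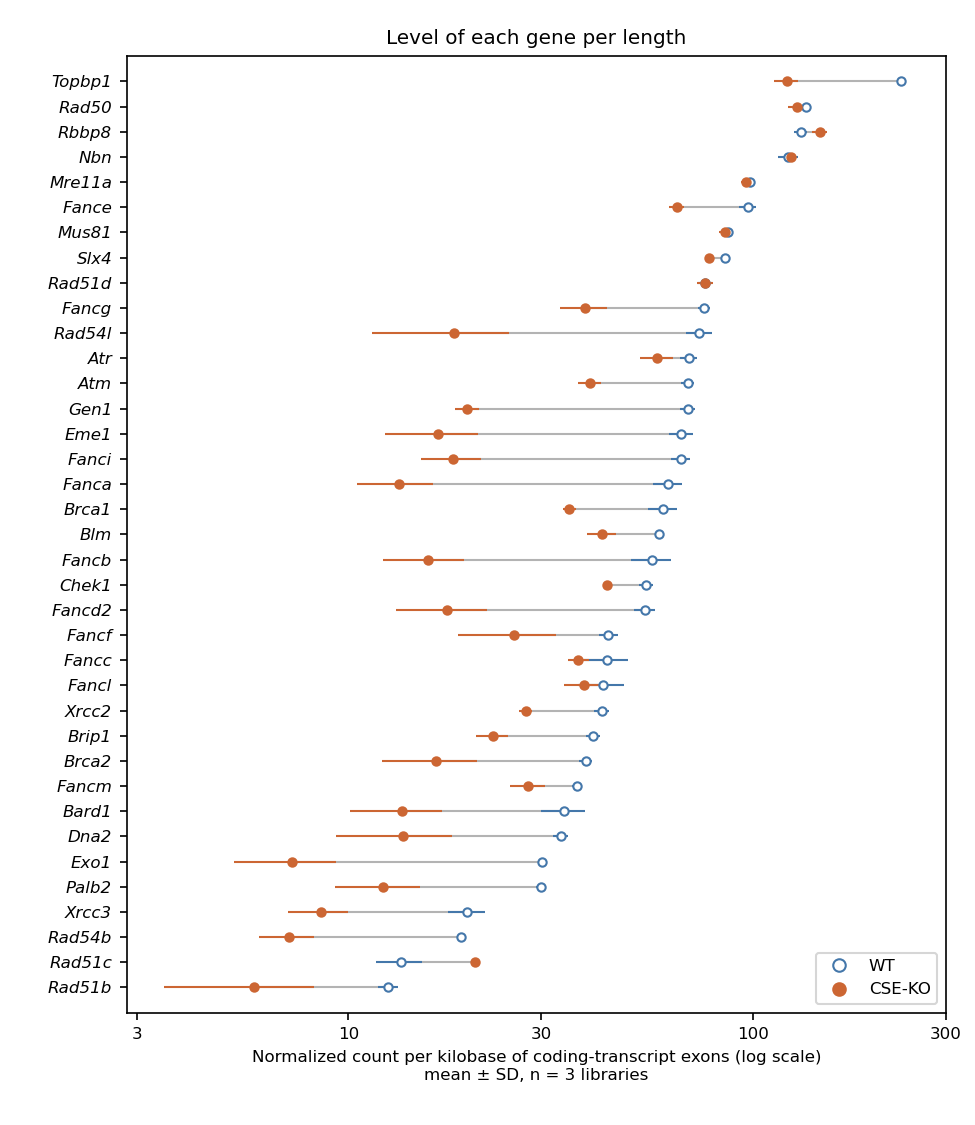
Level of each of the 37 genes as normalized counts per kilobase of exons of its coding transcripts, on a log axis, as mean ± SD over 3 libraries per group, ordered by the WT level. Topbp1 is highest in WT and Rbbp8 highest in CSE-KO with these lengths, but not with the exons of all annotated transcripts, while Rad51b is lowest in both groups with either.

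Per kilobase of exon in coding transcripts, the WT levels of the 37 genes ran from 12.6 for Rad51b to 232 for Topbp1. After Topbp1, the highest WT levels were those of Rad50 (135 ± 3.14, SD, n = 3), Rbbp8 (131 ± 4.73), Nbn (122 ± 6.64) and Mre11a (98.4 ± 0.80). The next, Fance (97.1 ± 4.56), lay within its SD of Mre11a. Rad50 and Rbbp8 differed by less than the larger of their SDs, and Rbbp8 and Nbn by less than the sum of theirs. In CSE-KO the order at the top became Rbbp8 (146 ± 6.10), Rad50 (128 ± 6.52), Nbn (124 ± 2.20) and Topbp1 (121 ± 8.52), with the last 3 within their SDs of each other. The order rests on the exon lengths. With the exons of all annotated transcripts, a choice added after the data were seen, WT Topbp1 was at 108 ± 1.42, below Rad50 (129.7 ± 3.01) and Nbn (122 ± 6.64), and Rbbp8 in CSE-KO was at 44.2 ± 1.85, in rank 8. Rad51c went from rank 36 to rank 22 with the first lengths and from 36 to 20 with the second. Fanca went from 17 to 32 and from 17 to 30, and Rad54l from 11 to 24 and from 26 to 33. Fold changes do not depend on the length.

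Subunits that act together were also set against each other within each library, in 11 pairs picked after the values were seen. The ratio of Eme1 to Mus81 came to 0.824, 0.977 and 0.928 in the WT libraries, against 0.287, 0.229 and 0.173 in those labelled CSE-KO. The ratio of Fanca to Fancl was 3.90, 2.82 and 3.62 against 0.946, 0.739 and 0.758, and that of Rad51c to Xrcc3 was 1.25, 1.33 and 1.09 against 3.67, 4.29 and 5.18. In these 3 pairs the groups did not overlap, as in 4 others, while the ratios of Brca2 to Palb2, Mre11a to Rad50, Nbn to Mre11a and Chek1 to Atr overlapped. Of these 4, Brca2 to Palb2 separated without CSE-KO 3 (3.91 and 4.30 against 3.36 to 3.69 in WT), Mre11a to Rad50 without CSE-KO 1 (0.854 and 0.875 against 0.799 to 0.824) and Nbn to Mre11a without WT 2 (0.562 to 0.574 against 0.519 and 0.537). Among the 4 other pairs without overlap were Bard1 to Brca1, which fell from between 0.457 and 0.525 to between 0.251 and 0.396, and Xrcc2 to Rad51d, from between 0.552 and 0.590 to between 0.344 and 0.407. Fancd2 to Fanci moved little, from between 0.844 and 0.964 to between 1.00 and 1.16. With 3 libraries a group, an exact 2-sided permutation test cannot go below p = 0.10, which the 7 pairs without overlap reached (0.16 after Benjamini-Hochberg adjustment over the 11 pairs), so none of these shifts passed a test of its own.

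**Figure D3:**
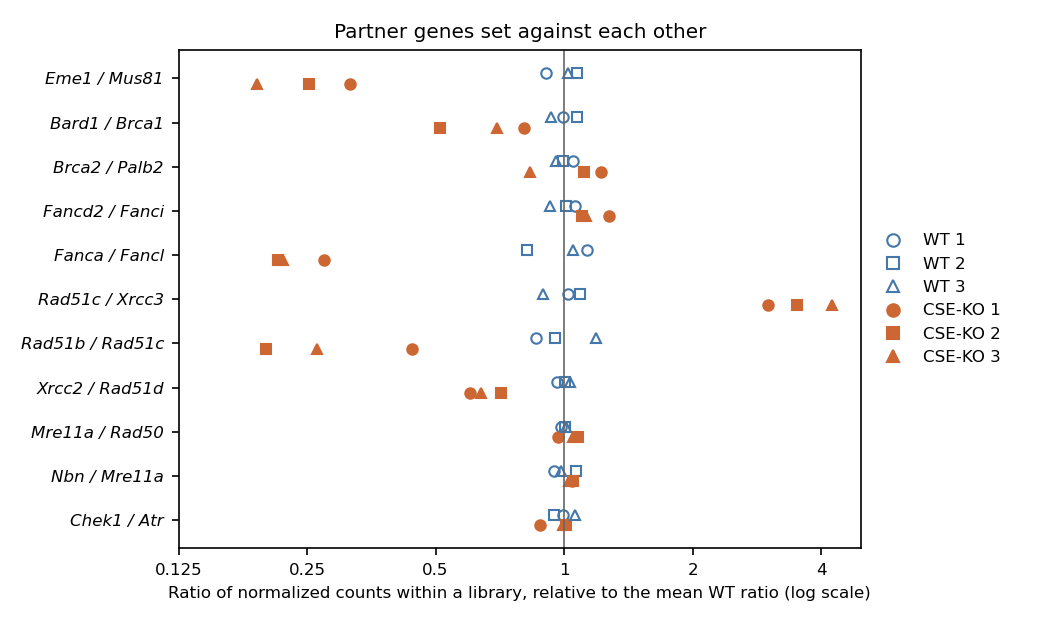
Ratio of normalized counts of 11 pairs of partner genes in each library, divided by the mean WT ratio, on a log axis; open symbols are WT and filled symbols CSE-KO. The ratio of Eme1 to Mus81 and of Fanca to Fancl lies far to the left in all 3 CSE-KO libraries, that of Rad51c to Xrcc3 far to the right, and those among Mre11a, Rad50 and Nbn stay near 1.

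Further genes of recombination and crosslink repair moved in both directions. Of 56 such genes tested, 34 fell, 12 rose and 10 were not called, against 39.0% falling and 38.3% rising among all genes tested. Their median log2 fold change was −0.34, and the difference from the 37 genes was not tested. Wrn, a RecQ helicase and exonuclease, went from 608, 624 and 627 to 345, 313 and 330, and Rtel1, a helicase that dismantles recombination intermediates, from 437, 481 and 465 to 224, 197 and 221. Fbh1, another helicase that restrains recombination, fell by 0.74 on the log2 scale, and Rpa1, the large subunit of the protein that coats single-stranded DNA, by 0.45. Of those that rose, Slf2, which recruits the SMC5/6 complex to crosslinks, went from 945, 955 and 901 to 1235, 1255 and 1309, and Babam2, a subunit of the BRCA1-A complex, from 309, 265 and 273 to 421, 429 and 439. Zswim7, which acts in homologous recombination, and Abraxas1, the scaffold of the BRCA1-A complex, also rose, by log2 fold changes of 1.32 and 0.45.

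Partners of ATM and ATR fell in 8 of 17 genes tested and rose in 2, with a median log2 fold change of −0.05. The shares of all genes tested were 39.0% for falls and 38.3% for rises. Mdc1, the scaffold that binds marked chromatin at breaks, went from 896, 966 and 918 to 600, 574 and 580, and Etaa1, a further activator of ATR, from 212, 219 and 200 to 114, 112 and 123. Clspn, which brings CHK1 to ATR, fell from 544, 528 and 515 to 214, 169 and 146, and Timeless, its partner at the fork, by 1.18 on the log2 scale. Rad9a, a subunit of the checkpoint clamp, rose from 325, 347 and 348 to 483, 523 and 485, and Rad17, which loads that clamp, rose by a log2 fold change of 0.15.

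End joining rejoins broken ends without a template and can act outside S phase. Of 18 genes for end joining and its single-strand break partners, 6 fell and 8 rose, with a median log2 fold change of 0.11. Among all genes tested, 39.0% fell and 38.3% rose, so neither count is far from the share of all genes. Xrcc4 and Lig4, which encode the ligase complex of the pathway, rose, the former from 132, 163 and 150 to 229, 228 and 230 and the latter from 184, 179 and 206 to 261, 258 and 265. Aptx, which clears failed ligation products from DNA ends, rose as well (log2 fold change 0.79), as did Paxx, which steadies the Ku complex (0.50). Prkdc, the kinase of the pathway, fell from 452, 483 and 495 to 274, 239 and 268, and Parp1, a sensor of nicked DNA, from 1011, 986 and 1020 to 544, 530 and 460. Xrcc1 and the polymerase gene Poll fell by 0.42 and 0.49 on the log2 scale. The difference between the end joining and the recombination genes was not tested.

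**Figure D4:**
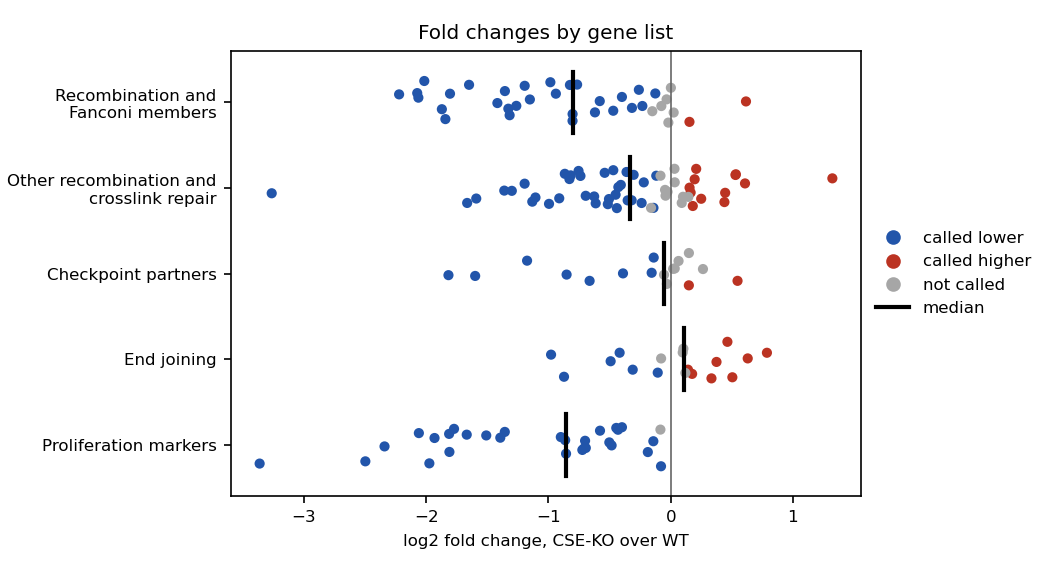
Log2 fold change of CSE-KO over WT for each gene of 5 lists, with the list median as a black bar; blue genes were called lower, red genes higher and grey genes were not called. The medians are −0.80 for the 37 recombination and Fanconi genes, −0.34 for other recombination and crosslink repair genes, −0.05 for checkpoint partners, 0.11 for end joining genes and −0.86 for proliferation markers.

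Because many S phase genes carry binding sites for E2F, the transcription factors that act at the entry into S phase, the 250 bases before each start site were searched for them. The sequences are RefSeq's on GRCm38.p6, the assembly of mm10, and 29 of the 37 genes matched by symbol. On both strands, the E2F search took TTCCCGC and its variant TTCGCGC, as well as TTGGCGC together with the related form TTGCCGC. A further search took TTTGAA, the core of the cell cycle homology region. An E2F motif stood in 9 of the 29 genes, or 31.0%, against 16.3% of 10204 genes tested for expression and 9.01% of all 27025 genes in the promoter table. The share was 34.8% in the proliferation markers (8 of 23) and 16.6% in the 4082 genes of the promoter table that fell. TTTGAA stood in 1 of the 29 (Bard1), or 3.45%, against 12.9% and 18.3%. Each E2F site is given here in the direction of the gene, with 10 bases on either side and the match in capitals, so that the genes that fell can be read beside Rad51c, which rose.
Bard1, chr1:71103164-71103190, minus strand: gccgctcagtTTCCCGCtcaggaagtt
Brca2, chr5:150522443-150522469, plus strand: ttaggccacaGCGGGAAacagacacac
Blm, chr7:80535124-80535150, minus strand: atcatccttcTTGCCGCgcagagcgtg
Fancb, chrX:164980410-164980436, plus strand: cggggtagagGCGGGAAtaagtgctct
Fancf, chr7:51862372-51862398, minus strand: ttcattttcaGCGCCAAtgtgccccgg
Fancg, chr4:43010336-43010362, minus strand: tcttttcagtTTCCCGCggaaccgtct
Fancm, chr12:65075486-65075512, plus strand: cgtcacacacTTCGCGCaatacgcatg
Fancm, chr12:65075539-65075565, plus strand: accaatcatcTTCCCGCcgcaaaatcg
Topbp1, chr9:103305185-103305214, plus strand: gtccgctcggTTGGCGCGAAagtcggttcc
Rad51c, chr11:87405006-87405032, minus strand: gcgcgcgtggGCGCCAAccactcccta

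The Topbp1 stretch holds 2 overlapping matches on opposite strands, and Fancm has 2 separate sites, 107 and 54 bases before its start. The Fancg stretch lies before the RefSeq start but inside the gene by the deposited coordinates (chr4:43002343-43010506), so the 2 annotations differ there. Of the 25 genes that fell and had a promoter sequence, 8 held an E2F motif, and so did Rad51c, which rose. Rbbp8, the other gene that rose, had no entry in the promoter table. Genes with sites fell by amounts from the small change of Fancm (log2 fold change −0.40) to that of Fancb (−1.84), while Fanca, Rad54l, Eme1 and Gen1, among the largest falls, held none of these letters in the window. A match is a description of the sequence and not evidence of binding.

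Annotated exons of 18 of the 37 genes share bases with another gene. In 9 the partner is antisense and reached at least 100 normalized counts in some library, among them Fanci with Polg (16.0% of the exonic length of Fanci), Rad54l with Lrrc41 (15.4%), Fancl with Vrk2 (13.7%), Fanca with Zfp276 (10.5%) and Eme1 with Lrrc59 (8.0%). The library kit keeps strand, but whether counting used it is not given in the sources used here, so some reads could belong to the partner. Rad54b shares 35.8% of its exonic length with Fsbp on the same strand, which was at 1 to 12 in every library.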

How the data were processed

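RNA was sequenced from mouse lung endothelial cells in 2 groups of 3 libraries. Per the labels' protocols, stranded mRNA libraries were built from 300 ng of total RNA and read as 75 bp single ends. Per the submitters' processing notes, Trimmomatic 0.39, STAR 2.7.3a, Picard 2.21.7, featureCounts 1.6.5, DESeq2 1.26.0 and mm10 were used, with no role or order given. The deposited table holds a whole-number score per gene and library, read here as a count divided by a library size factor, then rounded. The unit is stated nowhere and was taken from the values, whose recomputed median-ratio factors lay between 1.003 and 1.008. No row had a maximum under 3.

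Values were taken as log2(value + 0.5), and the 13750 genes that reached 10 in 3 or more libraries were fitted by limma 3.58.1 in R 4.3.3 (trend, robust variances, 2-sided, Benjamini-Hochberg, threshold 0.05). Fold changes on this scale understate low genes. Library sizes were not rescaled. The model was tested on simulated data. Exon lengths come from GENCODE mouse release 21, which held 18940 of the 18956 IDs. Alternatives covered scaling, filter, pseudocount, variance model, a fold threshold, a replicate block, merged replicates, leaving out each library and a shared-start correction. That correction assumes that reads with the same start were discarded, although the processing notes name no such step. For levels per kilobase, the alternative took the exons of all annotated transcripts. Depth per library is known only as the total of normalized counts. Named genes were all 37 members, Cth, up to 4 called genes per direction of each further repair list by smallest adjusted p, Mki67, Pcna and leading cell type markers. Other genes named were picked after their values were seen. The members and lists were chosen with earlier results of these data known. A gene of the further recombination list is not reported here.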

Additional observations from a re-analysis of the deposited data

How the results depend on the processing

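Over 19 alternatives, 664 of 701 values of the 37 fold changes kept direction and side of the threshold, 27 lost their call and 1 gained it. The other 9 changed sign without being called in either fit, in Mre11a, Mus81, Nbn and Rad51d, the largest to 0.054 (Mus81 with equal totals). No called value changed sign. The median of the 37 genes stayed between −0.88 and −0.73. Leaving out each library in turn gave 30 to 32 of the 37 called, 28 to 30 lower and 2 higher. The shares of all genes called are not given here for any alternative. Against a fold of 1.2, 6 checkpoint partners (10 otherwise), 7 end joining genes (14), 29 other recombination genes (46) and 1 rise among the 37 genes were called. Of the falls among the 37 genes, those of Atr, Chek1, Fancc, Fancm and Slx4 were not called against that fold. With the WT libraries as 1 sample, 1 of the 37 genes was called higher. With CSE-KO 2 and 3 merged too, it was again 1, with 9 end joining genes, 28 other recombination genes and 16 proliferation markers called; this fit has fewer samples. Of the 11 partner ratios, leaving out a library cannot bring overlap to the 7 without it, so it says nothing about them. Of the 4 that overlapped, 3 separated without 1 library. Same-numbered libraries did not deviate together (correlations −0.0008, 0.020 and 0.011), and not every library correlated best with its own number. With a replicate block 31 of the 37 genes were called, as without it, and 45 rather than 46 other recombination genes. The median of all genes tested was 0.077 with equal totals, and with that scaling Fancc and Slx4 lost their call (adjusted p = 0.12 and 0.22). Genes under 50 normalized counts, such as Rad51b and Xrcc3, rest on few reads.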
